A study of Mus musculus with 8 samples.

Results

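The Hedgehog pathway components described here are 9 mouse genes: the receptor genes Ptch1 and Smo, the coreceptor genes Cdon and Boc, the ligand-binding gene Hhip, the pathway inhibitor gene Sufu and the Gli factor genes Gli1, Gli2 and Gli3. Every probe set annotated to 1 of these symbols was taken, which gave 24 of the 45101 probe sets on the array and 9 of the 18193 genes named on it. The cells were LB-22, an immortalized mouse line of embryonic kidney origin, and the groups were 4 arrays of cells given an siRNA against Wt1 and 4 arrays of cells given a scrambled control siRNA. Wt1 encodes a zinc finger transcription factor needed for kidney formation. Both groups received 25 pmol of siRNA for 6 h and were grown for 48 h, and both had been expanded at a lower temperature in medium with interferon gamma, which was left out when transfection began and the temperature was raised. The labels name 1 line, 1 time point and 1 siRNA treatment against Wt1, and do not say that the replicates were separate cultures, so the p-values reflect only how far these samples spread, and that spread may be technical.

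Hedgehog ligands such as Sonic hedgehog bind Ptch1, which in their absence holds the membrane protein Smo inactive. Cdon, Boc and the membrane-anchored protein Gas1 bind the ligand together with Ptch1, while Hhip binds it and keeps it from signalling. Active Smo gathers in the primary cilium and releases Gli factors from Sufu, so that Gli2 acts mainly as an activator and less Gli3 is processed to a repressor; Gli1, Ptch1 and Hhip are themselves target genes in many tissues. In the embryonic mouse urinary tract, Sonic hedgehog from the epithelium of the ureter and collecting system acts on the mesenchyme around it.

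Wt1 signal was low in every sample given its siRNA. The single Wt1 probe set (1425995_s_at) gave 1679.3, 1531.0, 1316.8 and 1913.9 on Wt1 siRNA arrays 1 to 4, against 8396.8, 7129.4, 8197.2 and 7423.0 on control siRNA arrays 1 to 4. Mean signal was 1610 ± 251 after Wt1 siRNA and 7787 ± 607 after control siRNA (SD, n = 4 each), or 20.5% of control. An exact permutation test (two-sided) gave p = 0.0286, and no smaller value is possible with 4 arrays in each group. Signals are MAS5 intensities scaled by the authors to the same trimmed mean on every array (1500.0), with median signals of 279.1 to 346.1. A signal was called above background on an array where it exceeded the 95th percentile of 27 bacterial control probe sets, a level of 109.2 to 178.8 over the arrays. Within a group, arrays correlated at 0.966 to 0.985 in log2 signal, and the arrays with the lowest estimated weights were Wt1 siRNA array 4 (0.402) and control siRNA array 3 (0.364), against 0.91 to 2 for the others.

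Of the 9 components, Smo was higher and Cdon was lower after Wt1 siRNA, and the other genes had no probe set that passed the test. The rise of Smo, which encodes the signal-transducing receptor, was 1.30-fold and 1.40-fold by its 2 tested probe sets. Cdon, encoding an immunoglobulin-family coreceptor, fell to 55.8% of the control signal. Of 24 component probe sets, 14 in 7 genes lay in the brighter share of 0.5 of all probe sets and were tested with limma, and 3 of them passed an adjusted p of 0.05 (2 higher, 1 lower), which is 21.4%. Over all 22518 probe sets tested the shares were 23.1% in all, 10.8% higher and 12.3% lower, so the components were called about as often as other probe sets. The arrays of the groups did not overlap in 3 of the 14 component probe sets, against 27% of all probe sets tested (36.3% of genes at 1 probe set per gene). The median log2 difference was -0.03 over the 14 component probe sets and -0.01 over all probe sets tested. Because total RNA of whole cultures was measured, fewer cells that express a gene and less of its RNA per cell cannot be told apart. Precision is limited by the number of arrays.

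**Figure D1:**
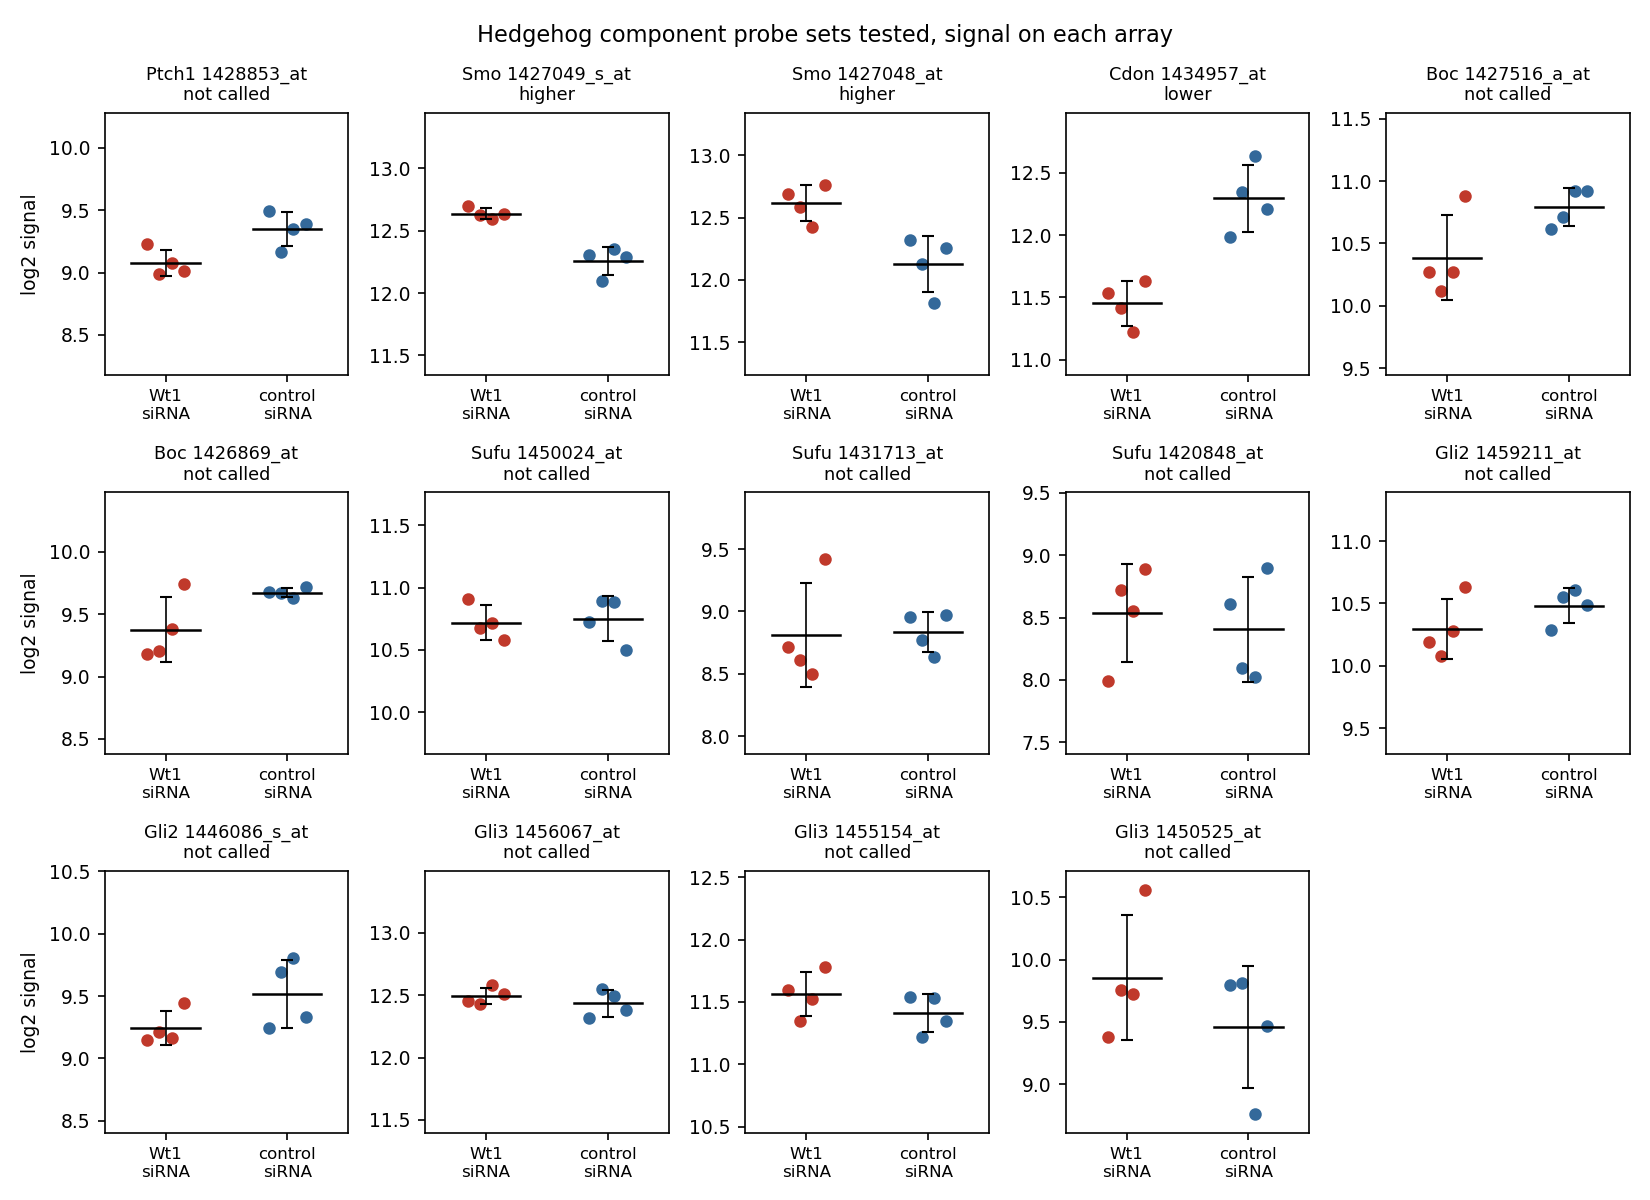
Log2 signal of each of the 14 tested component probe sets (vertical axis, placed separately in each panel but with the same span in log2 units) on every Wt1 siRNA array (left) and control siRNA array (right); lines are group means and bars are SD (n = 4). The groups stand apart without overlap for both tested Smo probe sets and for Cdon 1434957_at, and overlap in the other 11.

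Ptch1 encodes the ligand receptor and is the usual transcriptional readout of the pathway. Probe set 1428853_at gave 599.6, 508.5, 539.8 and 516.0 after Wt1 siRNA, against 720.1, 573.9, 651.4 and 670.4 after control siRNA. Wt1 siRNA arrays 2 to 4 lay below every control array, and array 1 lay above the lowest control, so the groups overlapped. The means were 541 ± 41.3 and 654 ± 60.7 (SD, n = 4 each), a log2 difference of -0.27 ± 0.15 (SE; 95% interval -0.60 to 0.06; limma adjusted p = 0.223), so the interval runs from 65.9% to 104% of control. The other Ptch1 probe sets were near background. Signals of 1439663_at were 95.6, 50.6, 42.8 and 46.0 after Wt1 siRNA, against 13.6, 61.1, 69.6 and 254.7 after control siRNA, above background only on control array 4. Those of 1450824_at were 20.3, 20.1, 18.4 and 181.5 after Wt1 siRNA, against 23.3, 48.8, 21.0 and 43.3 after control siRNA, above background only on Wt1 siRNA array 4. Neither was tested, and neither gives a direction for Ptch1.

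Smo was the only component whose signal passed the test upwards. Probe set 1427049_s_at, of a kind that can match several transcripts, gave 6630.2, 6305.3, 6168.2 and 6352.6 after Wt1 siRNA, against 5046.1, 4369.8, 5239.4 and 4992.0 after control siRNA. All 4 Wt1 siRNA arrays were above all 4 control arrays, and the Wt1 siRNA values lay close together. The means were 6364 ± 194 and 4912 ± 377, and the log2 difference was 0.38 ± 0.08 (SE; 95% interval 0.21 to 0.54; limma adjusted p = 0.00419). Probe set 1427048_at gave 6597.8, 6152.0, 5498.8 and 6958.9 after Wt1 siRNA, against 5119.0, 4474.1, 3602.4 and 4904.3 after control siRNA. Again no array of one group reached the other, with array 3 the lowest in each group. The means were 6302 ± 629 and 4525 ± 671, and the log2 difference was 0.49 ± 0.12 (95% interval 0.23 to 0.74; adjusted p = 0.0106). The remaining Smo probe set, 1442215_at, stayed between 4.3 and 35.9 on Wt1 siRNA arrays and between 8.9 and 53.8 on control siRNA arrays, not above background on any, and is given no difference. The mean over all 3 probe sets, which weighs this dim one like the others, had a log2 difference of -0.01.

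Cdon was the only component whose signal passed the test downwards. Probe set 1434957_at gave 2961.9, 2732.3, 2387.5 and 3179.0 after Wt1 siRNA, against 4056.2, 5191.5, 6367.7 and 4733.4 after control siRNA. Every Wt1 siRNA array was below every control array. The means were 2815 ± 338.5 and 5087 ± 973, and the log2 difference was -0.84 ± 0.13 (SE; 95% interval -1.14 to -0.55; limma adjusted p = 0.00104), that is 55.8% of control with an interval of 45.5% to 68.4%. The second probe set, 1421452_at, was dim, at 71.9, 73.7, 38.2 and 43.2 after Wt1 siRNA, against 257.1, 81.1, 174.0 and 65.9 after control siRNA. It was above background on 0 Wt1 siRNA arrays and 2 control siRNA arrays (1 and 3) and was not tested, and its groups overlapped.

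The start regions of Smo and Cdon are shown because these are the 2 components whose signal passed the test and because Wt1, the gene targeted by the siRNA, encodes a DNA-binding protein, whose own level was not measured here. Each sequence covers 250 bases before to 50 bases after the annotated start, 5′ to 3′ on the gene's strand, from RefSeq (GRCm38.p6), with CG dinucleotides in capitals. Smo lies on the plus strand at chr6:29735247-29735546 and Cdon on the plus strand at chr9:35451826-35452125.
Smo: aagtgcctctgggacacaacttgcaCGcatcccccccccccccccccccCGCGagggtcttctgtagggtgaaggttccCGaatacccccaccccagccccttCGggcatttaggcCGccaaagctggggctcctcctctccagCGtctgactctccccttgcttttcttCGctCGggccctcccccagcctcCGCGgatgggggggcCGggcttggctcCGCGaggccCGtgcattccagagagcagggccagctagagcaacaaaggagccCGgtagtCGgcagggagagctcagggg
Cdon: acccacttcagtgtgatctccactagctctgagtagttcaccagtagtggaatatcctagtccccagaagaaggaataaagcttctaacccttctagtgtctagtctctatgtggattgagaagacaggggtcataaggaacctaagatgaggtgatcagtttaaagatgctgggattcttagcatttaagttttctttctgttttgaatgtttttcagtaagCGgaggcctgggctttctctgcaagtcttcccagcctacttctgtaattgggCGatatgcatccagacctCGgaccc
The Smo region held 67.7% G and C and 17 CG dinucleotides, and the Cdon region held 44.7% and 3, against medians of 52.7% and 7 over all 32851 promoters of the table. A start region was found for 7 of the 9 components, with Boc and Gli1 not matched. The Gli core motif GACCACCCA, searched on both strands, was in 0 of these 7 regions and in 0.253% of all promoters. The letters of a WT1 core motif, GCGTGGGNG on both strands, were likewise in 0 of the 7 regions and in 1.90% of all promoters. This says only that these letters are not in these windows.

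Boc, the close relative of Cdon with the same ligand-binding role, had lower means after Wt1 siRNA but did not pass the test. Probe set 1427516_a_at gave 1234.9, 1114.3, 1233.0 and 1889.7 after Wt1 siRNA, against 1570.7, 1681.6, 1940.6 and 1935.6 after control siRNA. Wt1 siRNA arrays 1 to 3 lay below every control array, while array 4 lay within the control range. The means were 1368 ± 352 and 1782 ± 186, and the log2 difference was -0.41 ± 0.16 (SE; 95% interval -0.76 to -0.06; limma adjusted p = 0.0919). Without Wt1 siRNA replicate 4 the difference was -0.57 and the probe set was called lower (adjusted p = 0.00571). Probe set 1426869_at gave 580.2, 589.9, 666.7 and 858.4 after Wt1 siRNA, against 818.3, 814.9, 794.5 and 841.3 after control siRNA, so array 4 alone exceeded the controls and the other 3 lay below them. Its log2 difference was -0.30 ± 0.16 (95% interval -0.64 to 0.05; adjusted p = 0.198), and without replicate 4 the adjusted p was 0.052. The third probe set, 1427517_at, was not above background on any array, at 7.3 to 103.2 after Wt1 siRNA and 8.5 to 123.2 after control siRNA. Wt1 siRNA array 4 was also the highest of its group in 10 of the 14 tested component probe sets; the part of that array in the Boc result beyond these values was not tested.

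**Figure D2:**
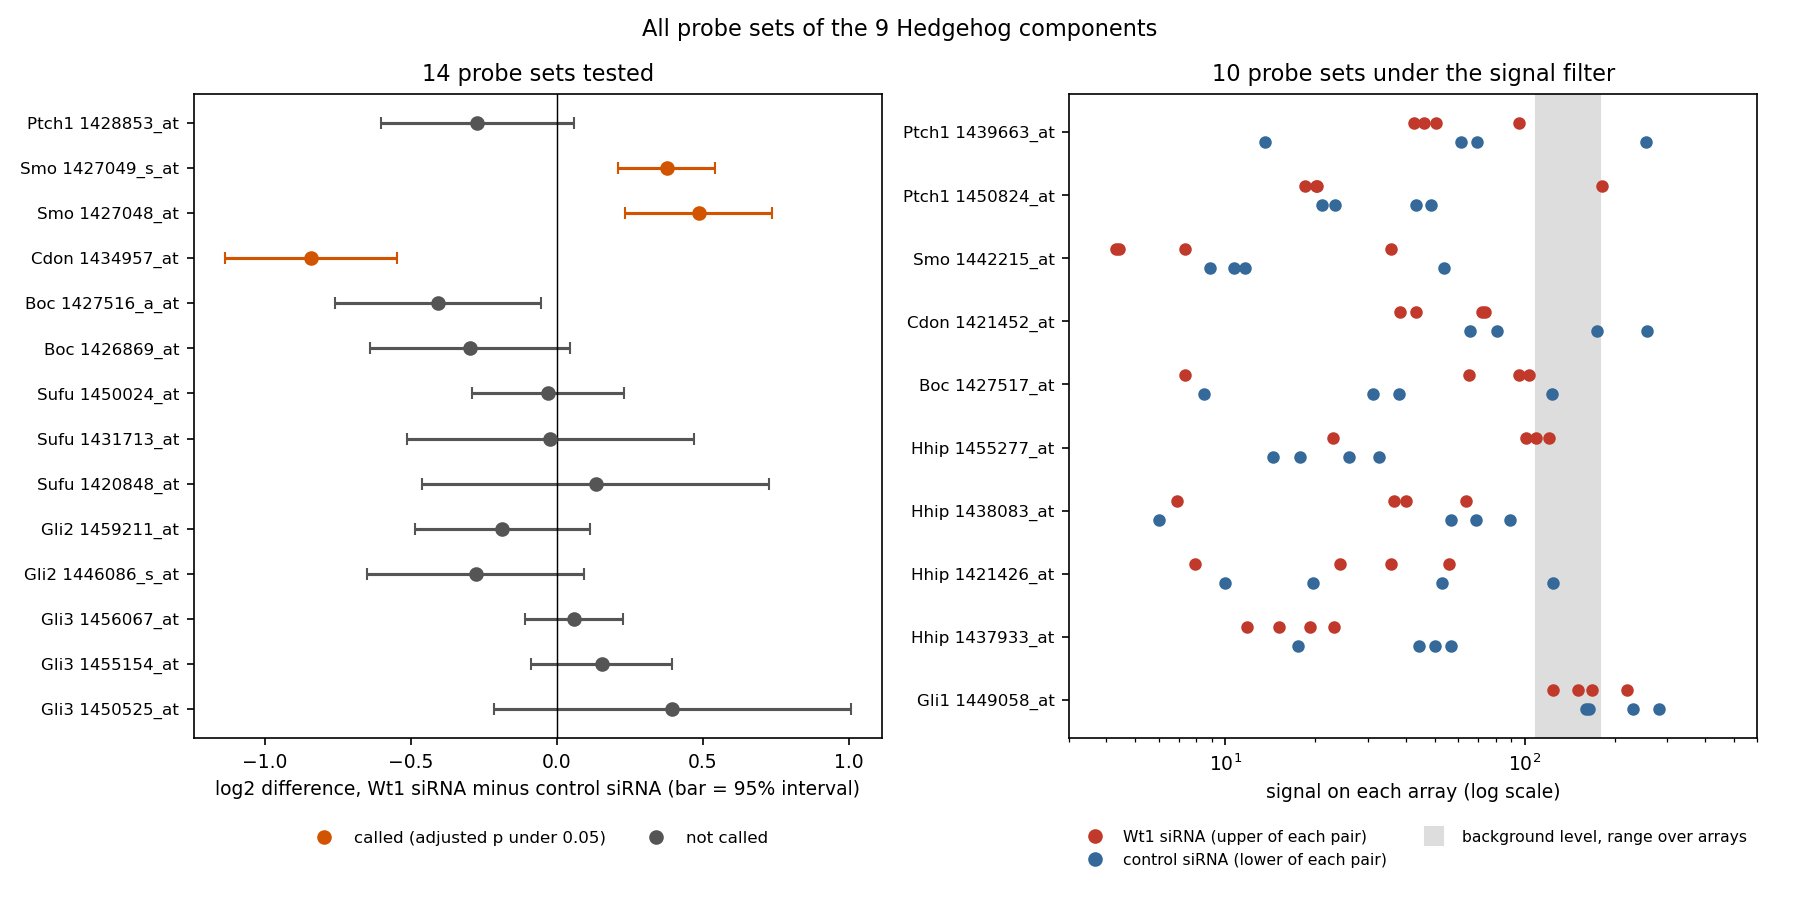
Left, log2 difference (horizontal axis; Wt1 siRNA minus control siRNA) with its 95% interval for the 14 tested component probe sets; right, signal on each array (log scale) for the 10 component probe sets under the signal filter, Wt1 siRNA above control siRNA in each pair, with the grey band at the background level of 109.2 to 178.8. Only the Smo and Cdon points at the left are called, and no probe set at the right is above background on all 8 arrays.

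Hhip, which encodes a decoy that binds the ligand at the cell surface, was not measurable. Its 4 probe sets gave signals of 6.0 to 124.6, and none was above background on any of the 8 arrays. The signals of 1455277_at were 108.9, 120.4, 22.8 and 101.1 after Wt1 siRNA, against 14.4, 25.9, 32.7 and 17.8 after control siRNA. Those of 1437933_at were 11.8, 19.2, 23.1 and 15.1 after Wt1 siRNA, against 44.5, 17.5, 50.3 and 56.8 after control siRNA. These 2 probe sets of the same gene thus leaned in opposite directions under background, and no difference is given for either. With no filter on signal, neither they nor any other of the 10 untested component probe sets passed an adjusted p of 0.05.

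Sufu, the inhibitor that retains Gli factors in the cytoplasm, had similar means in the groups. Probe set 1450024_at gave 1920.5, 1634.3, 1682.1 and 1526.0 after Wt1 siRNA, against 1691.2, 1899.2, 1885.2 and 1449.4 after control siRNA, with overlapping ranges. The means were 1691 ± 167 and 1731 ± 211, and the log2 difference was -0.03 ± 0.12 (95% interval -0.29 to 0.23; limma adjusted p = 0.884), an interval of 81.7% to 117% of control. The dimmer probe sets were less precise. The difference was -0.02 ± 0.22 by 1431713_at, at 420.1, 391.4, 361.1 and 685.5 after Wt1 siRNA, against 496.8, 435.8, 398.2 and 502.1 after control siRNA. It was 0.13 ± 0.27 by 1420848_at, at 254.2, 422.8, 375.7 and 474.3 after Wt1 siRNA, against 390.5, 273.3, 259.8 and 478.3 after control siRNA. The sign turned with the scaling and with a left-out array for the first and second of these probe sets, and with array weights alone for 1420848_at, so no direction is given for Sufu.

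Gli1, the factor whose own transcription follows pathway activity in many mouse tissues, was close to background. Its only probe set, 1449058_at, gave 124.3, 167.8, 220.1 and 150.5 after Wt1 siRNA, against 280.9, 160.6, 230.9 and 164.1 after control siRNA. It was above background on 2 Wt1 siRNA arrays and on 4 control siRNA arrays, the ranges overlapped, and it did not reach the signal needed for testing. With no filter on signal its log2 difference was -0.33 (limma adjusted p = 0.671).

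Gli2, the main activator of the family, had lower means by both of its probe sets without passing the test. Probe set 1459211_at gave 1167.6, 1082.1, 1245.2 and 1584.4 after Wt1 siRNA, against 1247.7, 1499.4, 1560.3 and 1431.8 after control siRNA. Wt1 siRNA arrays 1 to 3 lay below all controls and array 4 above them. The log2 difference was -0.19 ± 0.14 (95% interval -0.49 to 0.11; limma adjusted p = 0.363). Probe set 1446086_s_at gave 566.8, 592.9, 573.0 and 694.8 after Wt1 siRNA, against 607.6, 826.7, 892.7 and 643.8 after control siRNA, with overlap through array 4 alone. Its difference was -0.28 ± 0.17 (95% interval -0.65 to 0.09; adjusted p = 0.269).

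Gli3, the main repressor of the family, gave signals far above background, and its group means were close to each other by the brightest probe set. Probe set 1456067_at gave 5618.9, 5519.6, 6117.8 and 5846.2 after Wt1 siRNA, against 5096.3, 6011.7, 5780.8 and 5343.9 after control siRNA, with mixed ranges. The means were 5776 ± 266 and 5558 ± 414, and the log2 difference was 0.06 ± 0.08 (95% interval -0.11 to 0.22; limma adjusted p = 0.637). By this probe set alone the interval ran from 92.6% to 117% of control. By 1455154_at the signals were 3103.2, 2610.0, 2949.9 and 3513.4 after Wt1 siRNA, against 2972.8, 2390.1, 2966.2 and 2601.3 after control siRNA, a difference of 0.15 ± 0.11 (adjusted p = 0.350). The dimmest Gli3 probe set, 1450525_at, spread most, at 666.6, 862.9, 845.3 and 1509.3 after Wt1 siRNA, against 888.9, 896.6, 434.0 and 707.9 after control siRNA. Its difference of 0.40 ± 0.28 has an interval of -0.21 to 1.01 (adjusted p = 0.339). All 3 Gli3 differences were above 0, but none exceeded the spread between arrays.

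The 8 arrays of Smo 1427048_at and Cdon 1434957_at were also compared with every other tested probe set by the root mean square difference of log2 signals, each centred on its own mean. Nearest to Smo were Nabp2 (0.0475), Ctage5 (0.0580) and Fam174c (0.0609). For Cdon the nearest were Tmtc1 (0.0789), Morf4l2 (0.105) and Hacd4 (0.107). These distances are descriptive and hold over 8 arrays of 2 groups.

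Other genes of the pathway were counted at 1 probe set per gene, the brightest. Of 9096 genes tested this way with limma, 37.3% passed an adjusted p of 0.05, 18.8% higher and 18.5% lower, and their median log2 difference was 0.02. Among 10 genes for Hedgehog ligands and their release, 2 were bright enough to test, of which 1 was lower and 1 did not pass. Shh, encoding Sonic hedgehog, gave 408.8, 386.3, 357.7 and 451.8 after Wt1 siRNA, against 1302.4, 1242.8, 1338.9 and 1311.5 after control siRNA. All Wt1 siRNA arrays were far below all controls, with narrow ranges in both groups. The means were 401 ± 39.7 and 1299 ± 40.5, and the log2 difference was -1.70 ± 0.13 (adjusted p = 9.00e-07), or 30.8% of control. A second Shh probe set (1427571_at) was dim and scattered, at 131.2, 69.7, 15.8 and 245.2 after Wt1 siRNA, against 29.9, 60.6, 129.4 and 39.6 after control siRNA, so the fall rests on 1 probe set. The Wt1 siRNA arrays of the tested Shh probe set all lay under the lowest mean signal tested (664). Shh thus passed the signal filter only through its control arrays. Without control siRNA replicate 3, Shh dropped below the signal filter and the list had no call. Disp1, which exports the ligand from cells that make it, was at -0.11 ± 0.13 (adjusted p = 0.569). The ligand gene Ihh was too dim to test, at 181.0, 162.9, 155.9 and 260.5 after Wt1 siRNA, against 338.3, 333.9, 296.8 and 232.3 after control siRNA. So was Dhh, at 195.4 to 340.8 after Wt1 siRNA, against 32.1 to 362.3 after control siRNA.

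Among the other membrane components, 0 of 11 tested genes were higher, 3 were lower and 8 did not pass. The share called was 27.3%, against 37.3% of all genes tested. Gas1, encoding the lipid-anchored coreceptor that acts beside Cdon and Boc, gave 7641.3, 6171.2, 7292.9 and 9404.1 after Wt1 siRNA, against 19233.1, 22955.3, 25299.5 and 19990.9 after control siRNA. No array of one group came near the other, and the log2 difference was -1.53 ± 0.12 (34.7% of control; limma adjusted p = 9.11e-07), with -1.40 by a second probe set. Lrp2, the endocytic receptor megalin that binds Sonic hedgehog in the mouse forebrain, gave 501.1, 618.0, 748.7 and 644.3 after Wt1 siRNA, against 1519.6, 1183.9, 954.2 and 1314.5 after control siRNA. It was at -0.98 ± 0.17 (50.7%; adjusted p = 0.000548), and its other probe sets were at -1.67, also called lower, and at -0.16, not called. For the brightest Lrp2 probe set, all Wt1 siRNA arrays but array 3 lay under the lowest mean signal tested (664). Lrp2 thus passed the signal filter through its control arrays. Mosmo, encoding a protein that lowers the amount of Smo at the cell surface, gave 3537.1, 3372.4, 3675.1 and 2653.0 after Wt1 siRNA, against 4866.8, 5215.5, 4936.5 and 4950.6 after control siRNA. Its groups did not overlap and the difference was -0.60 ± 0.10 (65.8%; adjusted p = 0.000383), with -0.35 and no call by its second probe set. The 8 genes that did not pass, among them Evc, Evc2, Iqce and Efcab7 of the cilium-base complex that carries the Smo signal, ranged from -0.11 to 0.36. Genes called higher in this list numbered 2 without control siRNA replicate 3, 1 without Wt1 siRNA replicate 3, 1 with quantile normalization and 3 with array weights.

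**Figure D3:**
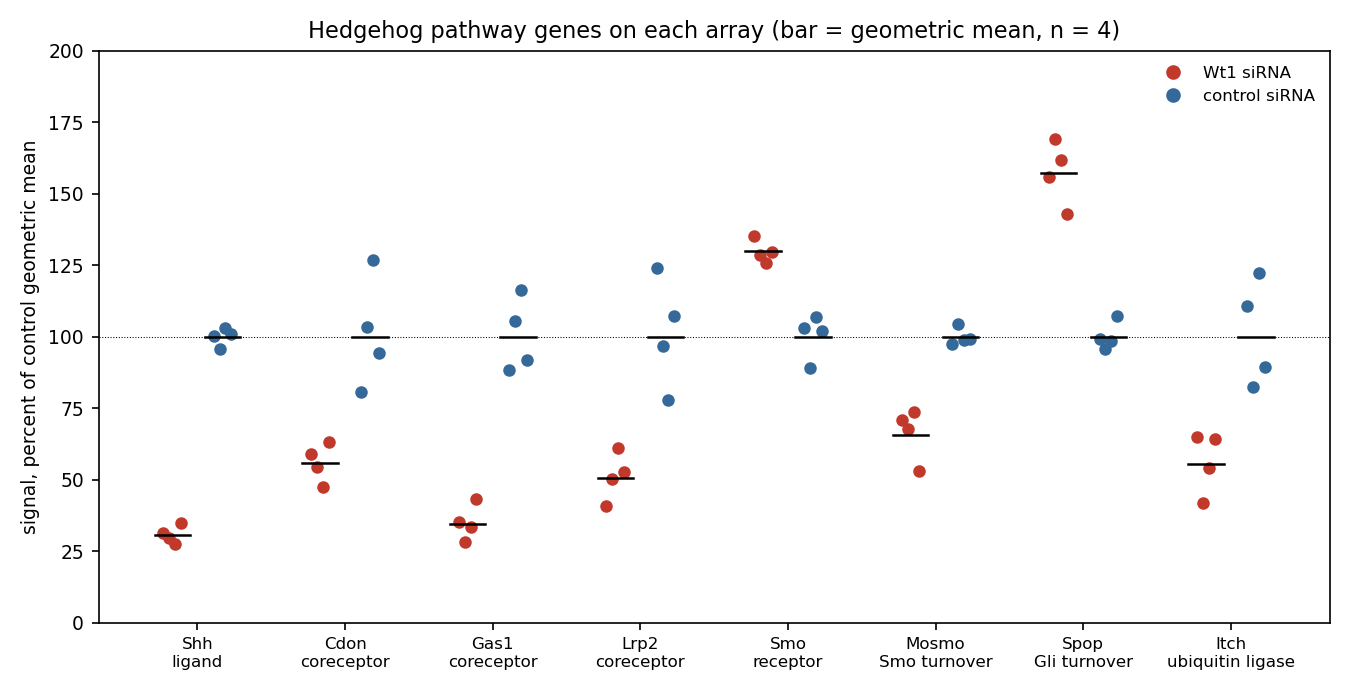
Signal on each array as a percent of the control geometric mean (vertical axis, from 0) for 8 pathway genes, all picked from those that passed the test. Wt1 siRNA arrays are left of control siRNA arrays and bars are at the geometric means (n = 4). Components that did not pass are not drawn. Other called genes are also left out, both higher (such as Tctn1, Fst and Jag2) and lower (such as Cdk6 and Ift74). The balance of directions drawn is therefore not that of the lists. Shh and Lrp2 passed the signal filter through their control arrays. Shh, Cdon, Gas1, Lrp2, Mosmo and Itch lie below their controls on all 4 Wt1 siRNA arrays, and Smo and Spop lie above.

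Of the cytoplasmic regulators of Gli proteins, 7 of 29 tested genes were higher, 2 were lower and 20 did not pass, with a median log2 difference of 0.01. The share called was 31.0%, against 37.3% of all genes tested. Spop, encoding the adaptor that delivers Gli2 and Gli3 to a ubiquitin ligase, gave 6698.2, 7270.6, 6949.8 and 6133.8 after Wt1 siRNA, against 4260.7, 4112.4, 4226.5 and 4600.7 after control siRNA. The groups were well apart, the rise was 0.65 ± 0.08 (1.57-fold; limma adjusted p = 2.61e-05), and its other probe sets rose by 0.76 and 0.84. Smurf1, a ubiquitin ligase gene, was at 0.48 ± 0.09, and the kinase genes Dyrk2 and Csnk1e were at 0.44 ± 0.08 and 0.42 ± 0.08. Averaged over its probe sets, Dyrk2 was at 0.31 and did not pass (adjusted p = 0.181). Csnk1e had a second called probe set at 0.79 and another at -0.28 that did not pass. Btrc, encoding a ubiquitin ligase subunit that acts in Gli3 processing, passed narrowly at 0.40 ± 0.14 (adjusted p = 0.0381). Testing dim genes too ended its call (adjusted p = 0.072), as did leaving out Wt1 siRNA replicate 1 or 4 or control siRNA replicate 2, 3 or 4 (adjusted p from 0.0609 to 0.0923), while another of its probe sets was at -0.66 without passing. Itch, a ubiquitin ligase gene, gave 1185.3, 763.0, 987.0 and 1171.8 after Wt1 siRNA, against 2016.9, 1502.3, 2229.3 and 1628.0 after control siRNA, with no overlap. It was lower at -0.85 ± 0.16 (55.5%; adjusted p = 0.00128), and Prkacb, a catalytic subunit of protein kinase A, at -0.35 ± 0.10. With the mean over a gene's probe sets 27 genes of the list were tested, with 4 higher and 0 lower. Itch was not bright enough to be tested in that setting. With median centring 1 gene was lower.

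Reported Hedgehog target genes outside the 9 components were called about as often as other genes. Of 15 tested, 3 were higher, 3 lower and 9 did not pass, with a median log2 difference of -0.03. The share called was 40.0%, against 37.3% of all genes tested (18.8% higher, 18.5% lower). The higher ones were Fst, encoding the activin-binding protein follistatin, at 0.88 ± 0.10, the Notch ligand gene Jag2 at 0.71 ± 0.16 and the cell cycle factor gene Foxm1 at 0.29 ± 0.07. The lower ones were the cell cycle kinase gene Cdk6 at -0.87 ± 0.09, the transcriptional repressor gene Zeb2 at -0.72 ± 0.19 and the small GTPase gene Rab34 at -0.26 ± 0.07. Foxm1 did not pass by the mean over its probe sets (0.12) and Rab34 did not pass with median centring (-0.15). Genes called higher numbered 5 without control siRNA replicate 3 and 5 with array weights. Without control siRNA replicate 1, Zeb2 dropped below the signal filter, which left 14 genes tested and 2 lower.

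Cilium transport and gate genes, which build and guard the compartment where Smo and Gli factors meet, had 4 of 30 tested genes higher, 9 lower and 17 not passing, with a median log2 difference of -0.13. The share called was 43.3%, against 37.3% of all genes tested. Tctn1, encoding a protein of the gate at the cilium base, was the largest rise at 1.28 ± 0.18 (2.42-fold; limma adjusted p = 0.000136), and Bbs7, of a cilium cargo complex, was at 0.49 ± 0.10. The intraflagellar transport genes Ift74 (-0.64 ± 0.09), Ift172 (-0.64 ± 0.12), Wdr35 (-0.62 ± 0.09) and Ift52 (-0.58 ± 0.09) were the largest falls of the list. The dynein motor gene Dync2h1 was at -0.53 ± 0.11, and its call was lost with median centring (-0.42, adjusted p = 0.0502). Centring each array on its median, which moved the median of all probe sets by 0.11, left 4 genes higher and 4 lower, and genes called higher numbered 2 without control siRNA replicate 2, without Wt1 siRNA replicate 2, with no filter on signal or with the mean over probe sets. Of 6 measured zinc finger relatives of the Gli genes, only Glis2 was bright enough to test, at 0.10 (adjusted p = 0.411).

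**Figure D4:**
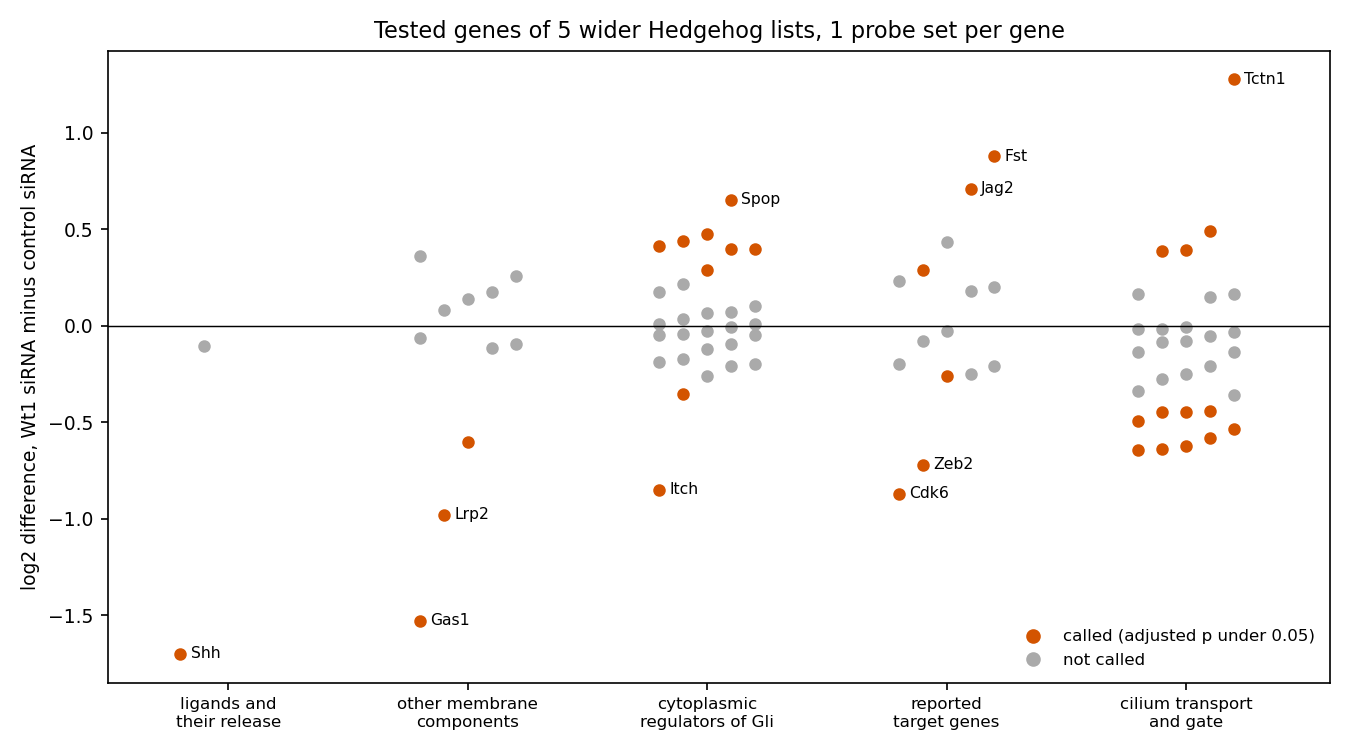
Log2 difference (vertical axis; Wt1 siRNA minus control siRNA) of each tested gene of 5 wider Hedgehog lists, 1 point per gene at its brightest probe set, orange where the adjusted p is under 0.05. As drawn, calls lie only below 0 among ligand genes (1 of 2 tested) and membrane genes (3 of 11), and on both sides of 0 in the other 3 lists. Of all genes tested, 37.3% were called. Membrane genes called higher numbered 1 with quantile normalization and 3 with array weights, and the ligand list had no call without control siRNA replicate 3. Shh and Lrp2 passed the signal filter through their control arrays.

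Marker genes of kidney cell types and of other cells were read on the same arrays. At 1 probe set per gene, 37.3% of all 9096 genes tested passed (18.8% higher, 18.5% lower). Calls among the few markers tested per list therefore cannot be read as a shift of a cell type. Of 9 measured markers of nephrogenic mesenchyme, 4 (Six2, Eya1, Osr1 and Hoxa11) were above background on every array and Cited1 and Gdnf on none, and their summed signal was 3664 to 4267 on Wt1 siRNA arrays, against 2722 to 3265 on control siRNA arrays. Osr1 was higher, and it was the only one of 2 tested to pass. For kidney stroma, 7 of 9 markers were above background on every array, Foxd1 on 1 array only, and the sums were 12331 to 13183 after Wt1 siRNA, against 13763 to 14202 after control siRNA. Tbx18 and Aldh1a2 of this list were lower and Ecm1 was higher, 3 of 3 tested. Epithelial markers summed to 19969 to 20948 after Wt1 siRNA, against 22223 to 24033 after control siRNA, with Krt8 higher and Epcam and Krt18 lower among 4 tested, where 1 gene was lower with median centring and without Wt1 siRNA replicate 2 or 3. Ureteric bud markers had 1 of 2 tested genes lower (Gata3), with sums of 2340 to 3421 after Wt1 siRNA, against 2961 to 3307 after control siRNA, and 0 were lower with quantile normalization, when dim genes were tested too, or when Wt1 siRNA replicate 1 or 3 or control siRNA replicate 1 was left out. Without control siRNA replicate 1 only 1 ureteric bud marker was bright enough to test. Among leukocyte markers Ptprc was not above background on any array, Cd68 was higher and Csf1r lower, and the sums were 3132 to 3427 after Wt1 siRNA, against 2580 to 3491 after control siRNA. Endothelial markers had Tie1 at background, 1 of 1 tested genes lower (Kdr; 0 with median centring), and sums of 2148 to 2591 after Wt1 siRNA, against 2589 to 3209 after control siRNA. Of the muscle markers 0 were tested, with sums of 1031 to 1441 after Wt1 siRNA, against 1053 to 1575 after control siRNA. Of the neural and glial markers 0 of 2 tested passed, with sums of 7356 to 8372 after Wt1 siRNA, against 7076 to 9027 after control siRNA. The part of these marker differences in the Smo, Cdon, Shh and Gas1 results was not tested.

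Across the alternative settings the Smo and Cdon calls were kept. The log2 difference ranged from 0.32 to 0.48 for Smo 1427049_s_at (adjusted p from 0.000714 to 0.0254), from 0.38 to 0.59 for Smo 1427048_at (0.00335 to 0.0345) and from -0.94 to -0.73 for Cdon 1434957_at (8.95e-05 to 0.00736), with the call unchanged in 18 of 18 settings of the probe set fit for each.

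**Figure D5:**
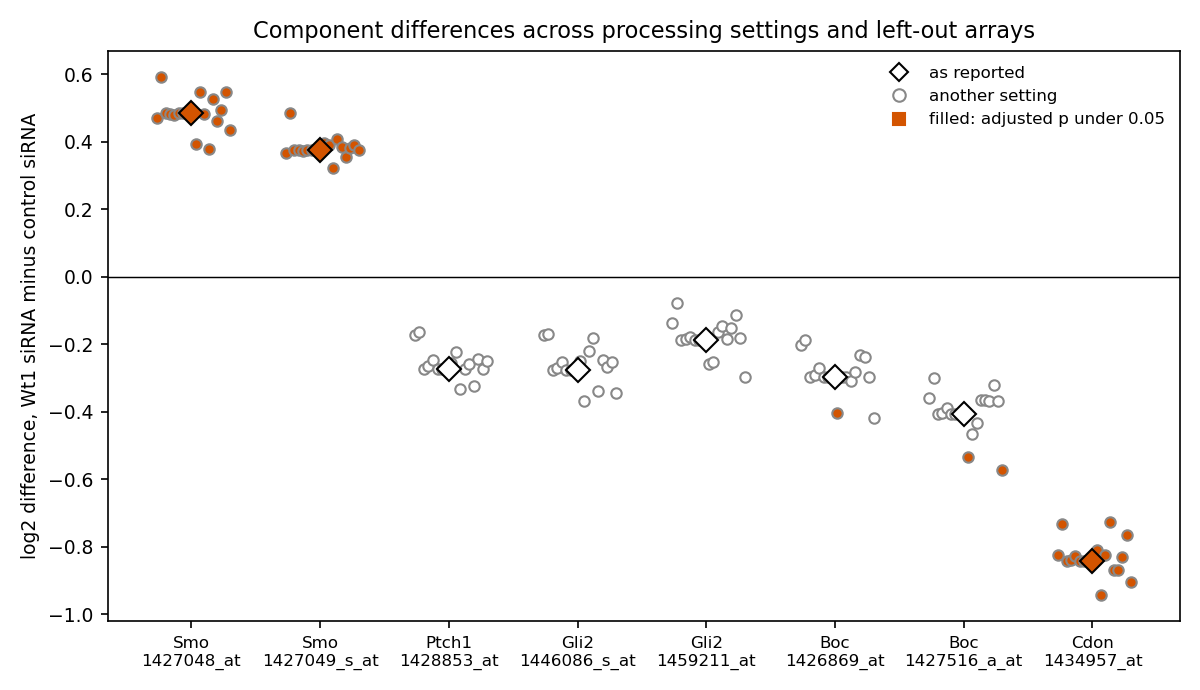
Log2 difference (vertical axis; Wt1 siRNA minus control siRNA) of 8 component probe sets as reported (diamonds) and under each alternative setting or left-out array (circles), filled where the adjusted p is under 0.05. Both Smo probe sets and Cdon are filled throughout, Ptch1 and Gli2 are open throughout, and Boc is filled with array weights and, for 1427516_a_at, without Wt1 siRNA replicate 4.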

How the data were processed

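RNA levels in LB-22 cells were read with 8 Mouse 430_2 arrays (Affymetrix), 4 per siRNA. The deposited values are an intensity per probe set on a linear scale, made by the authors with MAS5 per the submitters' processing notes, version not given in the sources used here. Leaving aside array controls, the platform annotation gave a single symbol to 34945 of 45037 probe sets, several to 932 and none to 9160, and only those with a single symbol were named, with symbols updated through Entrez gene IDs. Signals were log2 transformed with no further normalization and tested with limma 3.58.1 (lmFit, eBayes with an intensity trend, two-sided, R 4.3.3), with Benjamini-Hochberg adjustment at 0.05.

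Tests were made on the brighter share of 0.5 of probe sets by mean log2 signal over all arrays (22518, lowest mean signal 291), so the brightest untested component probe set had a mean of 182 and the dimmest tested one 355. The wider lists used the brightest probe set per gene (9096 genes, lowest mean signal 664). The filter did not use the groups, but a gene can pass it through the group where it is high, as Shh and Lrp2 did. The mean is taken over both groups, so a gene high only after Wt1 siRNA can pass in the same way. Zeb2 lay near the filter and was not tested without control siRNA replicate 1. Log2 signals varied within groups by a median SD of 0.17 for tested component probe sets and 1.17 for untested ones, which limits what can be seen. The procedure was tested on simulated data with independent values on each array. That setting has no differences in quality between arrays, so it does not give the error rate on these arrays. No array was a copy of another, with at most 42 equal values in any pair.

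The components, wider lists and marker lists were chosen with earlier results of these data known. Named genes were Wt1, all 9 components, and from each wider list up to 6 called genes with the largest differences. Some other genes of the lists were named beside these. Genes whose call changed with a setting were not all named, and for those not named only the counts per list are given. A fold or percent of control is a ratio of geometric means. Errors are the SE after a log2 difference and the SD after a signal. Alternatives were other normalizations, an added 16 or 64 before the logarithm, other filters and variance models, array weights, the replicate number as a block, the mean over a gene's probe sets, probe sets without the suffixes _s_at and _x_at, and leaving out each array. Promoters came from RefSeq (GRCm38.p6). Figures were drawn with matplotlib 3.10.9.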

Additional observations from a re-analysis of the deposited data

Results flagged for a closer look

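On the log2 scale, in each group of 4 arrays, the gap between the highest or lowest array and its nearest neighbour was divided by the group's range and set against Dixon's 95% critical value. Of 94 groups checked over the components and the named pathway genes, 7 exceeded it, and chance flags about 1 in 20. Among component probe sets at background, the ratio was 0.957 for Ptch1 1450824_at after Wt1 siRNA, where array 4 read 181.5 and the others 18.4 to 20.3. It was 0.895 for Hhip 1455277_at after Wt1 siRNA, with array 3 at 22.8 and the others at 101.1 to 120.4. For Smo 1442215_at it was 0.853 after control siRNA, with array 1 at 53.8 and the others at 8.9 to 11.6. For Hhip 1438083_at it was 0.832 after control siRNA, with array 3 at 6.0 and the others at 56.8 to 89.4. No tested component probe set exceeded the critical value on this scale. On the linear scale Boc 1427516_a_at after Wt1 siRNA did, with a ratio of 0.844 through array 4 at 1889.7 and the others at 1114.3 to 1234.9.

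The other 3 were called genes of the wider lists. Ift74 had a ratio of 0.889 after Wt1 siRNA, with array 1 at 3816.1 and the others at 3139.8 to 3208.3. Tctn1 had 0.864 after control siRNA, with array 2 at 399.8 and the others at 564.8 to 596.4. Csnk1e had 0.85 after control siRNA, with array 3 at 4251.9 and the others at 4997.3 to 5141.5.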

How the results depend on the processing

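Over 18 alternative settings the components called higher remained 2 probe sets in each. Components called lower numbered 1, except 3 with array weights, where both tested Boc probe sets joined Cdon (-0.53, adjusted p = 0.00566, and -0.40, adjusted p = 0.0341), and 1 to 2 with an array left out, the higher count coming without Wt1 siRNA replicate 4. Over all probe sets, 1369 were called lower with median centring, against 2764 as reported. At 1 probe set per gene, 785 were called lower with median centring, and with only the brighter share of 0.25 tested, where fewer genes enter, 1095 were called higher and 775 lower, against 1708 and 1687. The Wt1 call was kept in every setting run, and 14 component probe sets were above background on every array also when the highest bacterial control signal set the level. Sufu changed sign without a call. Probe set 1450024_at was at 0.0084 with quantile normalization, 0.077 with median centring, 0.072 with array weights (0.094 in the gene-level fit), and -0.11 to 0.017 with an array left out; the mean over Sufu probe sets was 0.026. Probe set 1431713_at was at 0.096 with quantile normalization, 0.086 with median centring and -0.23 to 0.083 with an array left out, and 1420848_at was at -0.10 with array weights. The mean over Smo probe sets was -0.011 (adjusted p = 0.982), with the dim 1442215_at included. In the gene-level fit Boc missed the threshold as reported (adjusted p = 0.0523) and passed with robust eBayes, array weights, the replicate block, without control siRNA replicate 1 and without Wt1 siRNA replicate 4 (-0.57, adjusted p = 0.00193), and Gli2 passed with array weights (-0.27, adjusted p = 0.0475). The causes of these changes were not tested. Of 784 values for 42 named results, 743 kept their sign and call, 10 lost a call, 9 gained one and 22 changed sign. These results were the tested component probe sets, the components at gene level and up to 6 called genes per wider list. Those genes had the largest differences of their list, so called genes with smaller differences, such as Prkacb and Bbs7, and the markers are not in this tally. Same-numbered arrays of the groups deviated from their group means with correlations of -0.037, -0.062, 0.043 and 0.082. Differently numbered arrays gave -0.202 to 0.162. The labels state no pairing, and correlations over 4 arrays per group cannot show whether the samples were paired. With the replicate block, 2133 probe sets were higher and 2475 lower, and the Smo and Cdon calls remained. Low signal over background limits Gli1, Hhip and the other probe sets under the filter, for which a difference was not detectable at these signals.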
